A study of Mus musculus with 80 samples.

Results

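The 10 genes described here, S100a1, S100a3, S100a4, S100a5, S100a6, S100a10, S100a11, S100a13, S100a14 and S100a16, are members of the S100 family on mouse chromosome 3. They were taken by symbol from the 25965 rows of the expression table, and were chosen by the RNA values of S100a1 and S100a13, which rise strongly in these samples when embryonic stem cells (ESCs) leave serum. H3K9me2, dimethylation of lysine 9 on histone H3, was read in the 891 bins of 2 kb, of 1026637 in the table, that overlap the genes or lie between them. S100 proteins are small calcium sensors with paired EF-hand motifs that work mostly as dimers, bind their partners when calcium rises and in several cases are also secreted. Most of the genes sit in clusters that flank the epidermal differentiation complex, the genes of the cornified skin barrier, and they are known from skin, muscle, brain and myeloid cells rather than from ESCs.

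The study asked how DNA methylation and H3K9me2 are lost when mouse ESCs move from serum to 2i, and its 80 samples span 4 assays. All samples used here were wild-type E14, an established mouse ESC line, so they represent 1 cell line. RNA-seq covered 12 samples, 3 each in serum and after 6, 24 and 72 h of 2i. ChIP-seq for H3K9me2 covered 2 bound samples each in serum, at 24 h of 2i and in long-term 2i (LT2i), with 1 input per medium. Serum cells grew with fetal calf serum and the cytokine LIF. In 2i the serum was replaced by N2B27, a serum-free medium, with LIF, the MEK inhibitor PD0325901 and the GSK3 inhibitor CHIR99021, so LIF was common to all groups. The labels give no duration for LT2i, and RNA of that stage was not analysed here.

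RNA values are the deposited log2 values per gene, corrected for length and depth, in libraries of 11297425 to 16736633 recovered reads in genes. ChIP libraries held 14396552 to 23785128 reads. All 10 ESC markers listed, among them Pou5f1, Sox2 and Nanog, had at least 10 reads in every RNA library. Some markers of other cell types were also read. At least 10 reads in every library were found for 6 of 10 fibroblast markers (Col1a1 had 282 to 1003), 7 of 10 primitive endoderm markers (Lama1 had 744 to 2822) and 2 of 10 myeloid markers (Cd68 had 171 to 410). The same held for 6 of 10 trophoblast markers, 4 of 10 keratinocyte markers and 4 of 9 mesoderm markers with a row. Lum of the fibroblast list, Mesp1 of the mesoderm list, and Ptprc, Lyz2, Tyrobp, Aif1 and S100a8 of the myeloid list, had at most 3 reads in any library. From serum to 72 h the summed fibroblast level (on the linear scale of the deposited values) moved from 8.87-11.4 to 7.39-8.78 (Col1a1 differed by -0.96, Thy1 by -0.46 and Pdgfrb by 2.18, all past limma's threshold). The myeloid sum, mostly Cd68, moved from 9.61-10.1 to 14.5-15.5, and the mesoderm sum from 8.19-9.39 to 5.86-6.95. The primitive endoderm sums overlapped, with Gata4 higher (0.92) and Dab2 lower (-1.08) at 72 h, both past limma's threshold. The summed level of the keratinocyte list ran from 51.3 to 53.4 in serum and from 21.4 to 32.1 at 72 h, and was mostly Sfn. The summed trophoblast list ran from 13.8 to 16.5 in serum and from 53.5 to 58.9 at 72 h, where the sum was mostly Tfap2c. Its members went both ways at 72 h. Tfap2c (2.39), Esx1 (3.19) and Krt7 (2.01) were higher and Ascl2 (-2.05), Hand1 (-1.65) and Gata3 (-1.12) lower (log2 differences from serum, all past limma's threshold), while Cdx2 (-0.02) and Eomes (0.44) did not pass and Tpbpa had at most 3 reads in any library. The fit took genes with a value of 0 or more in at least 3 libraries. Gata4, Pdgfrb and Krt7 had all serum values below 0, and Ascl2, Hand1 and Gata3 all 72 h values. These genes entered through groups where they were high, so their calls are not independent of the filter. Replicate 3 was the lowest of its group for all 6 S100 genes that could be tested at 6, 24 and 72 h, while over all genes tested it was the lowest for 37.7%, 47.8% and 44.9%. In bulk RNA, fewer cells with a transcript and less transcript per cell cannot be told apart.

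Of the 10 genes, 6 reached a value of 0 or more in at least 3 libraries and entered the limma fit with 12306 genes in all. These were S100a1, S100a13, S100a16, S100a6, S100a10 and S100a11. S100a14, S100a3, S100a4 and S100a5 did not, and for them only reads are given. Because S100a1 and S100a13 were chosen for their rise, their RNA values are a description with no test, and counts of calls cover the other 4 genes.

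S100a1, a calcium sensor best known from heart muscle where it binds the ryanodine receptor, and S100a13, which takes part in the export of FGF1 outside the classical secretory route, lie head to head. S100a1 spans chr3:90511034-90514392 on the minus strand and S100a13 spans chr3:90514435-90524581 on the plus strand (GRCm38). Only 42 bases separate their starts in the expression table. RefSeq starts S100a1 further inside, at position 90514330, so that 104 bases lie between the starts of the RefSeq windows used here. The 42 bases are the gap by the coordinates of the expression table and are shown because the rising pair diverges there, next to the 250 bases before the RefSeq starts of S100a6, which fell, and of S100a11, which was high in all groups. The sequences are from RefSeq (GRCm38.p6), read 5′ to 3′ on the plus strand, with CpG dinucleotides in capitals. They cover chr3:90514393-90514434, chr3:90612644-90612893 and chr3:93520246-93520495.
S100a1-S100a13 gap: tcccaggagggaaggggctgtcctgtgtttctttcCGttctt
S100a6 upstream: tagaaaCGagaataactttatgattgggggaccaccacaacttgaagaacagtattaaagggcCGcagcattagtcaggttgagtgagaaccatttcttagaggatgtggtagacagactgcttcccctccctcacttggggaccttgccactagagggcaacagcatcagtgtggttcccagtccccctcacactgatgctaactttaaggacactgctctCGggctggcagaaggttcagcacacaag
S100a11 upstream: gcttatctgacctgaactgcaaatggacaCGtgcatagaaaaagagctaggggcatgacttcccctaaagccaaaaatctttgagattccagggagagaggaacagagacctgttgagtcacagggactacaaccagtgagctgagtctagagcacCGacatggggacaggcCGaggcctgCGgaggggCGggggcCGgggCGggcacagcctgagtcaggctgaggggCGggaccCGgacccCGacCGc

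The gap held 1 CpG, the S100a6 stretch 3 and the S100a11 stretch 11. In windows of 300 bases around the starts (250 before and 50 after), S100a1 had 11 CpGs, S100a13 had 14 and S100a11 had 15, against a median of 7 over 32851 promoters. The windows of S100a16, S100a3, S100a4, S100a5 and S100a6 had 0 to 6. Windows of S100a1 and S100a13 share 204 bases and are not independent. RefSeq windows matched 8 of the 10 genes (12 windows), with none for S100a10 and S100a14.

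Letters of 6 motifs were searched on both strands. CACGTG (E-box) was found in the windows of S100a11 and S100a6, against 7.15% of all promoters. CTTTGA (the TCF/LEF motif read by the branch that the GSK3 inhibitor acts on) was found in S100a11 and in 1 of the S100a3 windows, against 16% of all. TGANTCA (AP-1) was found in S100a11 and S100a16, against 7.81%. TTCNNNGAA (STAT), AAGGTCA (ESRRB) and GGGTGTG (KLF) were in none of the 12 windows, against 8.3%, 4.72% and 7.95% of all promoters. The S100a1 and S100a13 windows held none of the 6.

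S100a13 had deposited log2 values of 1.16, 1.04 and 1.18 in serum, 2.64, 2.17 and 1.84 at 6 h, 7.42, 6.90 and 6.24 at 24 h, and 6.48, 7.08 and 6.15 at 72 h. The groups of serum, 6 h and 24 h did not overlap, and 24 and 72 h did. In recovered reads S100a13 went from 30, 23 and 37 per serum library to 2076, 1508 and 1196 at 24 h. Its mean was 2.13-fold that of serum at 6 h, 52.9-fold at 24 h and 43.4-fold at 72 h.

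S100a1 had log2 values of 0.62, 0.02 and 0.33 in serum, 1.14, 0.79 and 0.66 at 6 h, 5.61, 5.47 and 4.78 at 24 h, and 5.64, 6.05 and 5.27 at 72 h. All 6 h values lay above all serum values, and the values of 24 and 72 h overlapped. In reads these were 20, 11 and 20 in serum, 26, 22 and 21 at 6 h, 577, 544 and 422 at 24 h, and 798, 854 and 513 at 72 h. The closest values of serum (0.62) and 6 h (0.66) rest on 20 and 21 reads. Groups apart from serum at 6 h, in either direction, were seen for 44.4% of all genes tested. The S100a1 mean rose 1.45-fold at 6 h, 31.2-fold at 24 h and 40.2-fold at 72 h. Ranked by log2 difference from serum among the 12306 genes tested, S100a13 and S100a1 were in places 2 and 3 at 24 h, and in places 13 and 16 at 72 h.

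The balance between the pair was not constant. On the deposited log2 scale, which is per length, S100a13 exceeded S100a1 by 0.80 ± 0.24 in serum (SD, n = 3), by 1.35 ± 0.16 at 6 h, by 1.56 ± 0.21 at 24 h and by 0.91 ± 0.10 at 72 h. Every library of 6 and 24 h lay above every library of serum and 72 h in this difference. The lowest of 6 h (1.18) stood near the highest of serum (1.02) and of 72 h (1.03). Serum and 6 h libraries held only 11 to 26 S100a1 reads each, and counting error in this difference was not tested. S100a13 held 60.0% to 67.6% of the pair's reads in serum, 73.5% to 78.3% at 24 h and 64.7% to 67.7% at 72 h. The library kit does not mark strand, so reads from any overlap of the divergent transcripts cannot be told apart.

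**Figure D1:**
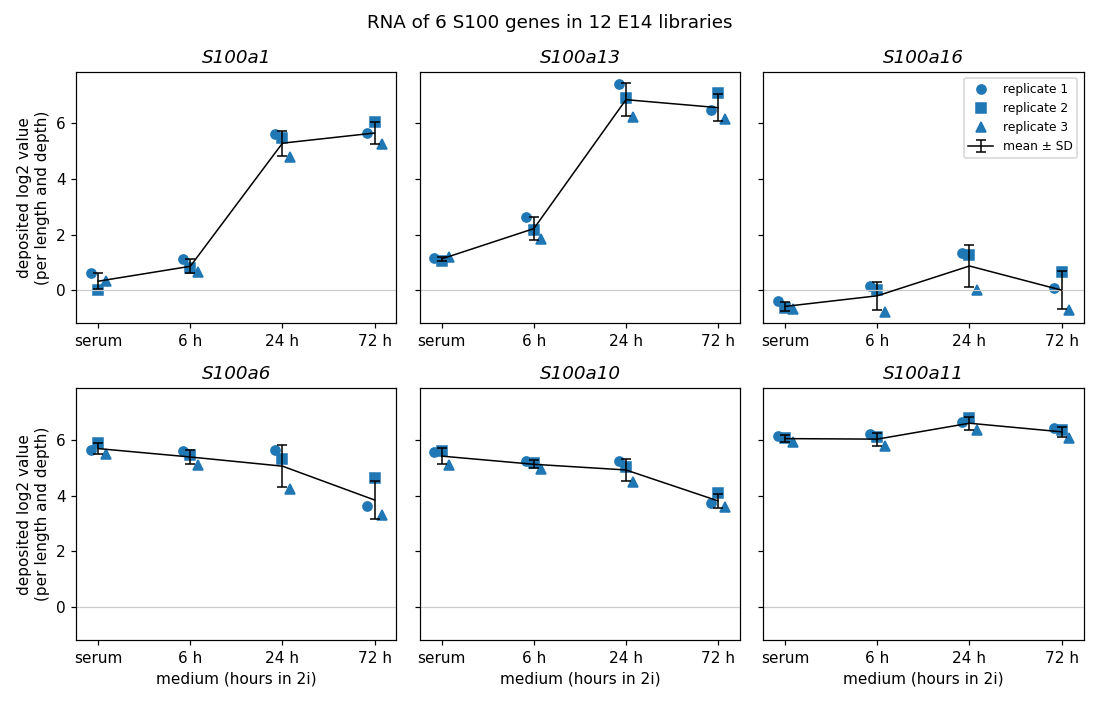
Deposited log2 value (vertical axis, per length and depth) of the 6 S100 genes that could be tested, in serum and at 6, 24 and 72 h of 2i. Points are single libraries, with the mean and SD in black. S100a1 and S100a13 climb from means of 0.32 and 1.13 in serum to 5.29 and 6.85 at 24 h, while S100a6 and S100a10 end at 3.84 and 3.81.

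S100a6 (calcyclin), which binds annexins and the calcyclin-binding protein Cacybp, fell late. It had log2 values of 5.65, 5.90 and 5.51 in serum, 5.58, 5.47 and 5.10 at 6 h, 5.65, 5.30 and 4.22 at 24 h, and 3.61, 4.62 and 3.29 at 72 h. Groups of 6 and 24 h overlapped serum, and that of 72 h lay below it. The difference from serum was -1.85 ± 0.37 (SE) at 72 h (limma, adjusted p = 0.00157) and -0.63 ± 0.37 at 24 h (adjusted p = 0.159). At 24 h the value passed with quantile normalisation (limma, adjusted p = 0.0467, and 0.0467 to 0.551 over all alternatives). The difference was -0.93 without replicate 1 of 24 h and -0.21 without replicate 3 of 24 h.

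S100a10, the light chain that pairs with annexin A2 and that, unlike its relatives, does not depend on calcium, had values of 5.56, 5.61 and 5.09 in serum and 5.25, 5.16 and 4.96 at 6 h. It then had 5.24, 5.03 and 4.49 at 24 h and 3.73, 4.09 and 3.60 at 72 h. Only the 72 h libraries lay clear of serum. The difference from serum was -1.61 ± 0.21 at 72 h (limma, adjusted p = 6.74e-05). At 24 h it was -0.50 ± 0.21 (limma, adjusted p = 0.0555). With the replicate number as a block that value passed (limma, adjusted p = 0.00511, and 0.00511 to 0.185 over all alternatives). It also passed with quantile normalisation (limma, adjusted p = 0.00757), with voom on recovered reads (0.0493), without serum replicate 3 (0.0255), without replicate 1 of 24 h (0.0246) and without replicate 2 of 72 h (0.0460). Without replicate 3 of 24 h the difference was -0.28 (limma, adjusted p = 0.185).

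S100a11 (calgizzarin), a partner of annexin A1, was the highest of the 6 in serum and moved little. Its values were 6.15, 6.08 and 5.91 in serum, 6.22, 6.09 and 5.77 at 6 h, 6.64, 6.81 and 6.35 at 24 h, and 6.42, 6.37 and 6.09 at 72 h. At 24 h all 3 libraries lay above serum, by 0.55 ± 0.16 (limma, adjusted p = 0.0103), which is beyond the median of 0.11 over all genes tested at that time. With quantile normalisation the difference was 0.28 (limma, adjusted p = 0.0566, and 0.000356 to 0.0566 over all alternatives). At 72 h it was 0.24 ± 0.16 (adjusted p = 0.220).

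S100a16, a family member with a single working calcium site per subunit, was low and stood higher at 24 h. It had values of -0.40, -0.66 and -0.68 in serum, 0.17, 0.01 and -0.78 at 6 h, 1.33, 1.27 and 0.01 at 24 h, and 0.07, 0.65 and -0.71 at 72 h. In reads this was 16 to 23 per library in serum and 69, 69 and 36 at 24 h. The 24 h libraries lay above serum by 1.45 ± 0.41 (limma, adjusted p = 0.00943). All its serum values were below 0, so the filter admitted it only through 2i libraries. The test of its rise is therefore not independent of the filter. At 72 h, with a difference of 0.58 ± 0.41, the groups overlapped (adjusted p = 0.255). That difference was 0.26 without replicate 2 of 72 h and 0.94 without replicate 3 of 72 h, and passed under neither. The step from 24 to 72 h was -0.87 ± 0.41 and did not pass either (limma, adjusted p = 0.122).

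At 6 h, 0 of the 4 tested genes passed limma, against 15.6% of all genes tested in either direction and 9.13% higher. Their differences from serum were 0.38 (S100a16), -0.30 (S100a6), -0.29 (S100a10) and -0.02 (S100a11). Single libraries moved them, to 0.20 and 0.67 for S100a16 without replicates 1 and 3 of 6 h, to -0.20 and -0.16 for S100a6 without serum replicate 2 and replicate 3 of 6 h, to -0.46 for S100a10 without serum replicate 3, and to between -0.12 and 0.11 for S100a11. None of the 4 genes had an unadjusted p under 0.05, and voom on recovered reads called 0. At 24 h, 2 of 4 passed, both higher, against 63.3% of all genes in either direction and 34.2% higher. S100a16, 1 of these 2, had entered the fit only through 2i libraries. With the replicate number as a block, 3 of 4 passed, S100a10 as the lower one, and the share of all genes under that setting is not given here. At 72 h, 2 of 4 passed, both lower, against 52.2% in either direction and 26.5% lower. With 4 genes, these shares are not far from those of all genes. At 24 h the stricter filter on low values left 3 of the 4 in the test and 1 called. Counted instead by groups that do not overlap, 0 of 4 were apart from serum at 6 h, 2 of 4 at 24 h and 2 of 4 at 72 h, against 44.4%, 64.7% and 63.5% of all genes.

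Between time points, S100a16 and S100a11 rose from 6 to 24 h, by 1.07 ± 0.41 (limma, adjusted p = 0.0414) and 0.57 ± 0.16 (adjusted p = 0.00989), so that 2 of 4 passed against 59.4% of all genes. The S100a16 call did not hold without any 1 serum library, replicate 2 or 3 of 6 h, replicate 1 or 2 of 24 h or replicate 1 of 72 h, which left 1 call, and with quantile normalisation neither gene passed. From 24 to 72 h, S100a6 and S100a10 fell by 1.22 and 1.11 on the log2 scale (limma, adjusted p = 0.0295 and 0.00232), 2 of 4 against 31.6% of all genes. The S100a6 call was lost, leaving 1, without replicate 1 or 2 of 24 h or replicate 1 or 3 of 72 h. Without replicate 3 of 24 h, 4 of 4 passed, S100a16 (-1.30) and S100a11 (-0.43) included. S100a1 and S100a13 differed between 72 and 24 h by 0.36 and -0.29. Single libraries set the size of both, which was 0.11 (S100a1) and -0.59 (S100a13) without replicate 3 of 24 h, 0.16 and -0.54 without replicate 2 of 72 h, 0.56 and -0.08 without replicate 3 of 72 h, and -0.0034 for S100a13 without replicate 1 of 24 h.

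In serum the order of per-length levels was S100a11 (mean 6.05 ± 0.13, SD), S100a6 (5.69 ± 0.20), S100a10 (5.42 ± 0.29), S100a13 (1.13 ± 0.07), S100a1 (0.32 ± 0.30) and S100a16 (-0.58 ± 0.15). Only the libraries of S100a6 and S100a10 overlapped among neighbours. At 72 h the order was S100a13 (6.57 ± 0.47), S100a11 (6.29 ± 0.18), S100a1 (5.65 ± 0.39), S100a6 (3.84 ± 0.69), S100a10 (3.81 ± 0.26) and S100a16 (0.00 ± 0.68). There S100a13 overlapped S100a11, and S100a6 overlapped S100a10.

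The genes below the filter had few reads. S100a14, an epithelial S100 protein, had 0 reads in all serum libraries, 0, 0 and 1 at 6 h, 3, 5 and 1 at 24 h and 7, 6 and 4 at 72 h. Against a floor of 3 reads over the serum group, the 17 reads of 72 h, taken as exact, were 5.55-fold higher per read sequenced. S100a4 (metastasin), a marker of fibroblasts and motile cells that binds non-muscle myosin, had 5, 1 and 8 reads in serum, 5, 4 and 1 at 6 h, 1, 0 and 1 at 24 h and 0 in all 72 h libraries. Against the same floor at 72 h, and with its 14 serum reads taken as exact, it was 4.77-fold lower. S100a3, known from the hair cuticle, had 7, 4 and 2 reads in serum and 0 to 2 in any 2i library, and its reads at 72 h were 0.0753 of those in serum (exact 95% interval 0.00177 to 0.501). S100a5, known from olfactory neurons, had 0 reads in all 12 libraries. The fold values of S100a14 and S100a4 leave out the counting error of the group with reads and are not strict lower bounds. The S100a3 interval covers counting error only.

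**Figure D2:**
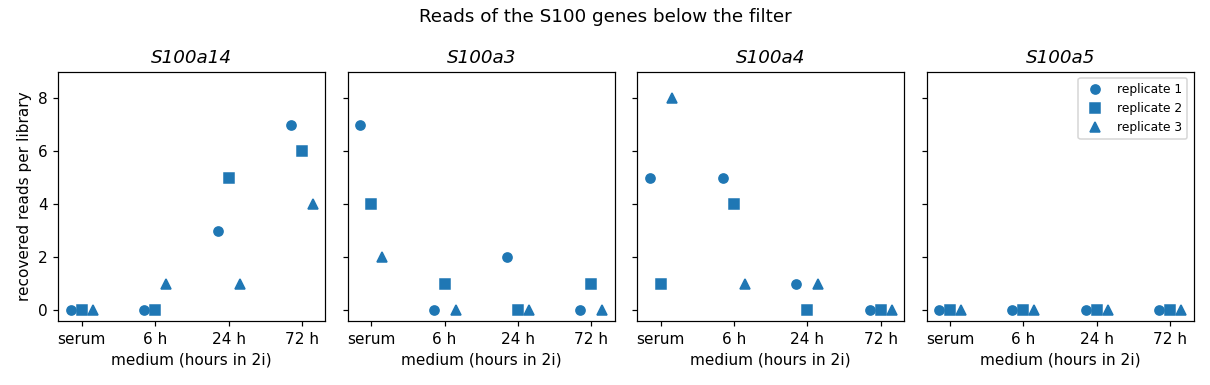
Recovered reads per library (vertical axis) of the 4 S100 genes below the filter, in serum and at 6, 24 and 72 h of 2i. Each point is a library. S100a14 reaches 7, 6 and 4 reads at 72 h from 0 in serum, S100a4 ends at 0, and S100a5 has no read.

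Other parts of the S100 system were read from lists. Of 7 other S100 genes in the table only S100pbp, which codes for an S100P-binding protein and not for an S100 protein, could be tested. It was lower at 24 h by 0.46 on the log2 scale (limma, adjusted p = 0.0164). S100a7a, S100a8, S100a9, S100b, S100g and S100z had at most 6 reads in any library. The row at the RefSeq position of S100a2 (chr3:90590247-90591508) had 0.

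Among 20 genes for partners of S100 proteins 15 could be tested. At 6 h 1 rose and 1 fell, at 24 h 1 rose and 5 fell, and at 72 h 2 rose and 3 fell, with a median difference of -0.14 at 72 h beside -0.01 over all genes. Of all genes tested 9.13% were higher and 6.48% lower at 6 h, 34.2% and 29.1% at 24 h, and 25.7% and 26.5% at 72 h. Anxa2, whose product forms a tetramer with the S100a10 protein, had values of 3.52, 3.40 and 3.19 in serum and 2.27, 2.63 and 2.32 at 72 h. These groups did not overlap, and the difference was -0.96 (limma, adjusted p = 0.00039). Ahnak, a giant scaffold that the same tetramer binds, fell by 1.59 on the log2 scale (adjusted p = 0.000627). The genes that rose were Plat (tissue plasminogen activator, 0.77) and Nucb1 (a Golgi calcium-binding protein, 0.60), with adjusted p of 0.00701 and 0.000429. All Plat values in serum were below 0, so Plat entered the fit only through 2i libraries.

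Other calcium-binding proteins of the EF-hand family formed a further list. Of 21 genes tested, 3 rose and 1 fell at 6 h, 14 rose and 2 fell at 24 h, and 11 rose and 4 fell at 72 h, with median differences of 0.68 at 24 h and 0.50 at 72 h. Over all genes 9.13% rose and 6.48% fell at 6 h, 34.2% rose and 29.1% fell at 24 h with a median of 0.11, and 25.7% rose and 26.5% fell at 72 h with a median of -0.01. At 72 h the leading rises were Lcp1 (an actin-bundling plastin, 2.83) and Calb2 (calretinin, 2.26), and the leading falls Actn4 (an actin crosslinker, -1.46) and Capn2 (a calpain protease, -1.08). All 4 passed limma, with adjusted p of 1.73e-05 (Lcp1), 1.21e-05 (Calb2), 1.16e-05 (Actn4) and 2.38e-06 (Capn2).

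Genes within 100 kb of an S100 gene numbered 14, of which 7 could be tested. At 6 h 0 passed, at 24 h 5 rose and 1 fell, and at 72 h 3 rose and 0 fell, against 9.13% of all genes higher and 6.48% lower at 6 h, 34.2% and 29.1% at 24 h, and 25.7% and 26.5% at 72 h. The gene that fell at 24 h was Ints3 (-0.74, limma, adjusted p = 0.000446), a subunit of the Integrator complex. The largest rises at 72 h were Gm5278 (0.74, adjusted p = 0.00706) and Snapin (0.66, adjusted p = 0.00025), a SNARE-binding protein whose row overlaps that of Ilf2. 2500003M10Rik, the tested neighbour closest to S100a1 and named after its values were seen, differed from serum by 0.40 at 24 h (adjusted p = 0.00825), beside 4.97 for S100a1 and 5.73 for S100a13.

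**Figure D3:**
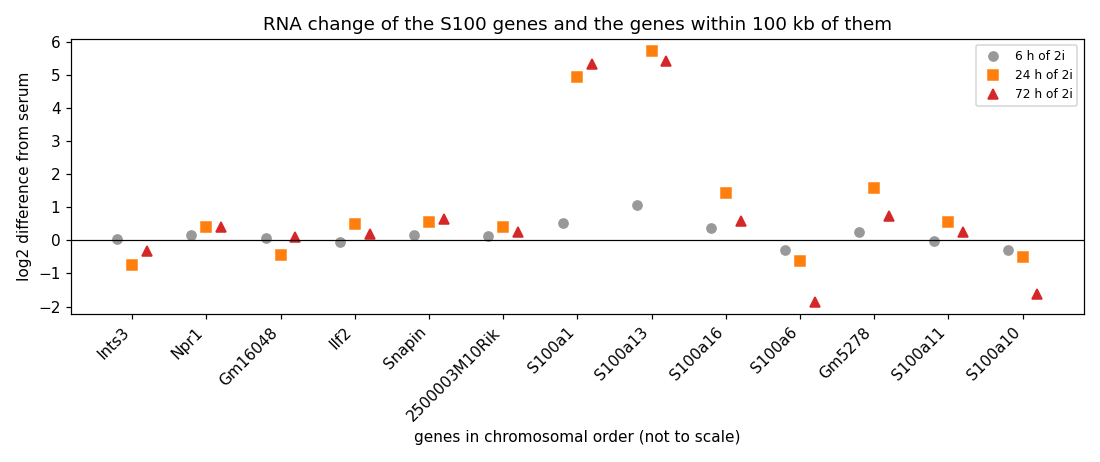
Log2 difference from serum (vertical axis) at 6, 24 and 72 h of 2i for the tested S100 genes and tested genes within 100 kb of them, in chromosomal order. S100a1 and S100a13 reach 4.97 and 5.73 at 24 h, while the other genes lie between -1.85 and 1.59 at all times.

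The epidermal differentiation complex lies between S100a6 and S100a11. Of its 31 listed genes, 22 had no read in any library and 0 passed the filter. The highest was Tchh (trichohyalin, a hair follicle protein), with 74, 43 and 89 reads in serum and 21, 12 and 15 at 72 h. Loricrin (Lor) had 30 reads over the serum libraries and 0 at 72 h.

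The genes whose pattern over the 12 RNA samples was most like the mean of S100a1 and S100a13 were sought among 1201 genes with a range over group means of at least 2. They were Fabp3-ps1 (Pearson r = 0.995), Fam134b (0.995), Fabp3 (0.994), Renbp (0.992) and Ldhb (0.991). For comparison, S100a1 and S100a13 had r = 0.991 with each other. Fabp3 codes for the heart fatty acid binding protein and Fabp3-ps1 is named as its pseudogene, so that their reads may be shared. Ldhb is a lactate dehydrogenase subunit, Fam134b a receptor for turnover of the endoplasmic reticulum and Renbp a renin-binding epimerase. Their rises at 24 h ran from 2.11 (Ldhb) to 2.86 (Fabp3) on the log2 scale. The r values rest on 12 libraries in 4 groups, mostly on the step between 6 and 24 h.

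H3K9me2, a mark of silent chromatin laid down mainly by G9a and GLP, was a readout that the choice of the genes did not use. Enrichment is the log2 ratio of bound to input reads, each scaled to library size, over the bins that overlap a gene, with a prior of 0.5 reads. Because each library is scaled to its own total, a loss of equal proportion across the genome would not show in these values. S100a1 and S100a13 share the bin that holds both starts, and neighbouring genes can share others, so the 10 genes are not independent. In serum the values ranged from -1.71 (S100a6) to 0.71 (S100a14, above 96.9% of genes). S100a3 (0.40) and S100a4 (0.31) were also above input. S100a1 (-1.55) and S100a13 (-1.37) were already low in serum, above 36.1% and 39.9% of genes.

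At 24 h of 2i limma called no change in scaled H3K9me2 enrichment over S100a1 and S100a13, nor over any other of the 23602 genes tested. A fall over these genes could therefore have gone undetected. The study reports, from western blots and immunofluorescence, a rapid fall in global levels of the mark after the change of medium. Whether these genes shared in that fall in absolute terms was not tested. By ChIP-seq the study reports the same general pattern of the mark through the conversion, with more flattening where enrichment was low. S100a1 had 30 and 23 bound reads in serum and 26 and 23 at 24 h, with enrichment of -1.39 and -1.71 against -1.06 and -1.29. S100a13 had 40 and 42 reads against 41 and 30, with enrichment of -1.43 and -1.30 against -1.25 and -1.75. The differences from serum were 0.37 ± 0.19 (SE, limma, adjusted p = 0.413) and -0.14 ± 0.29 (adjusted p = 0.855). Without serum replicate 2 the S100a1 difference was 0.21, and without serum replicate 1 it was 0.53. For S100a13 the difference ran from -0.39 to 0.11 over single libraries left out. By counting error alone, bound reads scaled to library size at 24 h were 1.19 times those in serum for S100a1 (exact 95% interval 0.792 to 1.79) and 1.12 times for S100a13 (0.801 to 1.55). Over the 10 genes limma called 0, against 0% of the 23602 genes tested. The other genes differed from serum by 0.66 (S100a5), 0.63 (S100a6), 0.45 (S100a10), 0.30 (S100a3), 0.18 (S100a11, or 0.11 without serum replicate 2), 0.03 (S100a16), -0.09 (S100a4) and -0.12 (S100a14). The first 4 of these, all higher at 24 h, had an unadjusted p under 0.05 and adjusted p of 0.197 to 0.243, and 3688 genes (15.6%) had such an unadjusted p in all. S100a6 had 11 and 13 bound reads in serum and 16 and 19 at 24 h, a ratio scaled to library size of 1.88 (exact 95% interval 1.09 to 3.30).

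In LT2i the mark was lower over most of the 10 genes. S100a1 had 5 and 4 bound reads with enrichment of -3.48 and -3.55, and S100a13 had 15 and 8 reads with -3.07 and -3.72. Serum and LT2i did not overlap for either, but the share of all genes apart in this way was not counted. The differences were -1.97 ± 0.19 for S100a1 (limma, adjusted p = 0.00198) and -2.03 ± 0.29 for S100a13 (adjusted p = 0.00414). In bound reads scaled to library size LT2i was 0.190 of serum for S100a1 (exact 95% interval 0.0824 to 0.388) and 0.314 for S100a13 (0.188 to 0.503). Differences over all genes had a median of -0.63, and those of S100a1 and S100a13 were below all but 5.36% and 4.7% of genes.

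The cluster neighbours differed in size. S100a16 had 74 and 46 bound reads in serum and 9 and 18 in LT2i (-1.69 ± 0.43, limma, adjusted p = 0.0229), and its difference was -1.10 without replicate 1 of LT2i. S100a4 had 81 and 65 against 30 and 28 (-1.50 ± 0.13, adjusted p = 0.00182). S100a11, S100a6, S100a3, S100a5 and S100a10 differed by -0.98, -0.86, -0.79, -0.75 and -0.54, all past limma's threshold. S100a14, with the most H3K9me2 in serum, had 92 and 65 reads against 50 and 32 and did not pass (-0.61 ± 0.22, adjusted p = 0.0623). With bound reads alone it passed (limma, adjusted p = 0.00550, and 0.00550 to 0.337 over all alternatives). Its difference was -0.39 without serum replicate 1, -0.40 without replicate 2 of LT2i, -0.83 without serum replicate 2 and -0.82 without replicate 1 of LT2i.

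In total 9 of 10 genes were called lower in LT2i, against 47% of all genes lower and 53.6% in either direction. With each library centred on the median over all genes, 3 of 10 remained, S100a1 (-1.11), S100a13 (-1.17) and S100a4 (-0.65), all past the threshold (limma, adjusted p = 0.00442, 0.0188 and 0.00833). With the same centring 11.3% of all genes were called lower and 33.3% higher. S100a16 was -0.83 and S100a11 -0.12 on that scale, and the sign turned for S100a14, S100a3, S100a5, S100a6 and S100a10. Leaving out single libraries gave 6 to 9 calls of 10. Without serum replicate 1 the calls of S100a16, S100a10 and S100a11 were lost, and without replicate 1 of LT2i those of S100a5 and S100a10, while S100a10 also lost its call without serum replicate 2.

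**Figure D4:**
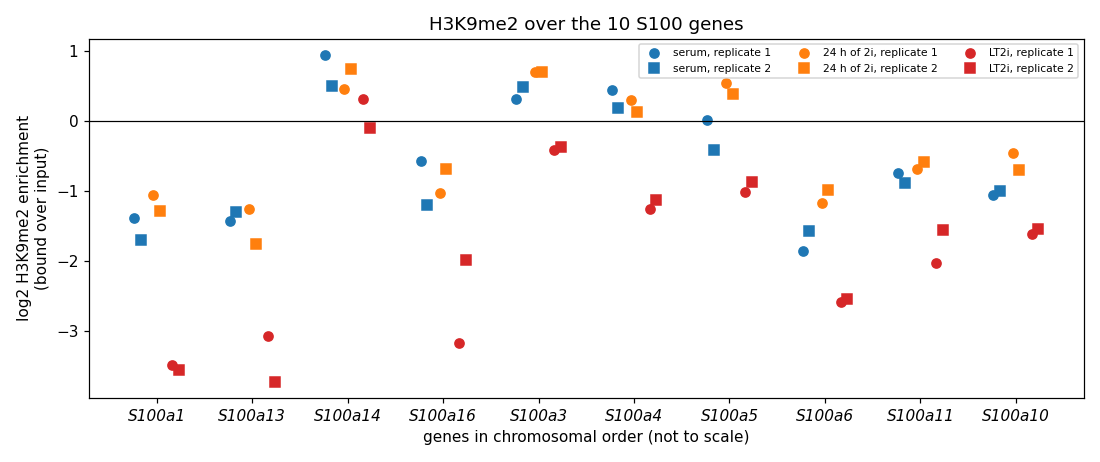
Log2 H3K9me2 enrichment (bound over input, vertical axis) over each of the 10 S100 genes, in chromosomal order, in serum, at 24 h of 2i and in LT2i. Each point is 1 of 2 libraries. S100a1 and S100a13 sit between -1.71 and -1.06, or down to -1.75 at 24 h, before LT2i and between -3.72 and -3.07 in LT2i.

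Over the bins held in the table, the group from S100a1 to S100a6 (chr3:90511034-90614414) had enrichment of -0.28 and -0.46 in serum, -0.24 and -0.21 at 24 h and -1.06 and -1.09 in LT2i. LT2i lay below serum by 0.70 on the log2 scale, and 24 h and serum lay close together. The stretch from S100a11 to S100a10 (chr3:93520488-93564643) had -0.56 and -0.69, -0.55 and -0.68, and -1.07 and -0.99, with LT2i again the lowest. The stretch between them, which holds the epidermal genes and for which the table has 819 bins where its length would give 1453, had 0.15 and 0.20 in serum, 0.22 and 0.20 at 24 h, and 0.19 and 0.24 in LT2i, all above input and overlapping between serum and LT2i. With 2 libraries against 2, an exact two-sided permutation test cannot go below p = 0.333, and it gave 0.333 for LT2i against serum in both S100 stretches. Taken bin by bin, the median difference of LT2i from serum was -0.22 over all bins of the table. It was -0.76 from S100a1 to S100a6, -0.59 from S100a11 to S100a10 and -0.07 in the stretch between them.

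In bins of 2 kb from S100a1 to S100a6, 13 of 52 were called lower in LT2i and 0 higher (25.0%, limma), against 13.5% of all bins lower. From S100a11 to S100a10, 3 of 20 were lower and 1 higher. Between them 81 of 819 were lower and 82 higher (9.89% and 10.0%), against 13.5% and 7.97% of all bins. Over all 891 bins 180 were called, 20.2% against 21.4% of all bins in either direction. The total fell to 42, 47, 73 and 64 without serum replicate 1, serum replicate 2, LT2i replicate 1 or LT2i replicate 2.

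At 24 h, 13 of the 891 bins were called, all in the stretch between the S100 groups (11 higher and 2 lower), against 2.51% of all bins in either direction and 1.32% higher. In the S100 stretches 0 of 52 and 0 of 20 were called by limma, with 8 (15.4%) and 3 (15%) at an unadjusted p under 0.05, against 20.2% of all bins. None of the 13 held when any 1 bound library was left out, or in a fit of serum and 24 h alone.

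The bin over the starts of S100a1 and S100a13 (chr3:90514001-90516000) had 7 and 5 bound reads in serum, 7 and 6 at 24 h and 1 and 0 in LT2i. Its input had 24, 32 and 24 reads. The difference in LT2i was -2.81 (limma, adjusted p = 0.00804) and rests on 1 read in LT2i. The bin over the S100a4 start went from 32 and 34 reads to 15 and 16 (-1.51, adjusted p = 0.00572), and start bins of the other 7 genes did not pass. The start bins of S100a10 and S100a11 had 0 to 3 bound reads in any library, too few to show a change.

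The highest bin in serum (1.70, chr3:91942001-91944000) and the lowest (-4.28, chr3:93306001-93308000) both lay in the stretch between the S100 groups. In the highest, 39 and 43 bound reads in serum stood against 29 and 48 in LT2i, and the lowest had 0 bound reads in serum and LT2i.

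**Figure D5:**
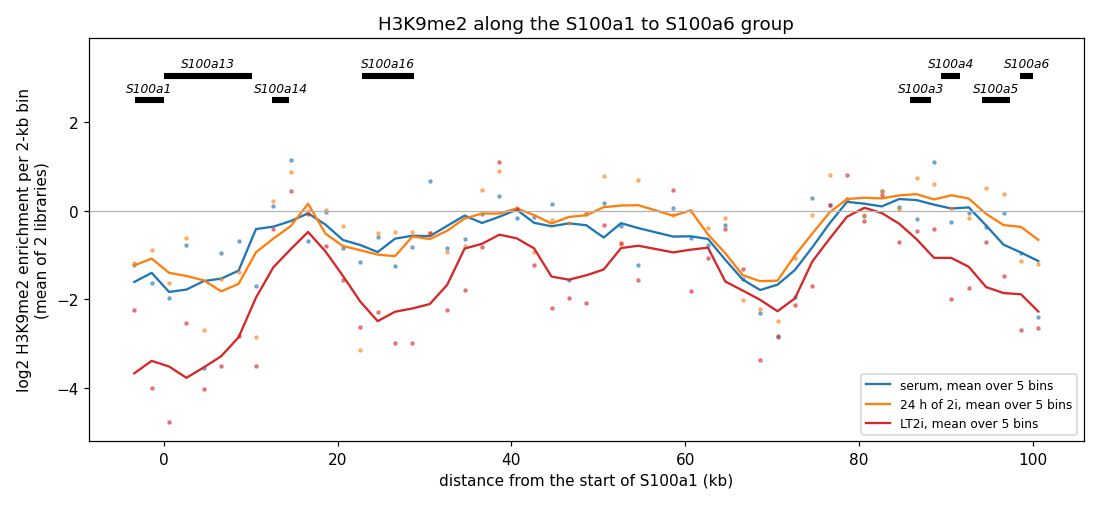
Log2 H3K9me2 enrichment per 2-kb bin (vertical axis, mean of 2 libraries) against distance in kb from the start of S100a1, over the group from S100a1 to S100a6. Points are bins, lines are means over 5 bins and bars mark the genes. The LT2i line runs furthest below the others over S100a1 and S100a13, runs below them over S100a16 and S100a4 to S100a6, and comes close to them just past S100a14 and before S100a3.

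Other lists are given for scale. Over 29 epidermal differentiation complex genes with bins, 2 were called higher and 5 lower in LT2i, with median enrichment of 0.36 in serum and 0.27 in LT2i, against 6.57% of all genes higher and 47% lower. Over the 24 EF-hand genes 17 were called lower and 0 higher, with medians of -1.19 and -2.82. Over the 10 S100 genes the medians were -0.85 and -1.69, beside -0.90 and -1.78 over all genes. The part that cell types other than ESCs may have in these results was not tested.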

How the data were processed

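Members and gene lists were chosen with earlier results of these data known. For RNA-seq (TruSeq v2, 50-base single reads, no strand) the authors deposited log2 values per gene in GRCm38 coordinates, corrected for length and depth and set to a common 75th percentile. The ChIP-seq table, as deposited, gives each 2-kb bin a log2 read number brought to the depth of the largest library. The submitters' processing notes name Trim Galore 0.3.5, TopHat2 2.0.11 and Bowtie2, without roles here. Undoing the scaling gave whole reads for all 25965 genes (within 0.01 reads or a relative 3e-06, and the S100 genes within 0.00061 reads) and all bins (within 0.02 reads). A gene without reads had been entered as 0.9 reads. All sample columns of both tables could be mapped (0 unmapped). Bisulfite files, in NCBIM37 positions, were not used here.

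All fits used limma 3.58.1 in R 4.3.3 (lmFit and eBayes with trend) over all features, two-sided, Benjamini-Hochberg, threshold 0.05. RNA fits took the 12306 genes with a value of 0 or more in at least 3 of 12 libraries, all 4 groups, without a block. ChIP fits took 6 bound libraries minus the input of their medium, whose own error does not enter. Fits were tested on simulated data. The study calls its expression replicates biological, but neither it nor the labels say whether these libraries came from separate cultures. The p-values measure the spread between these samples, which may be technical. Of the groups compared, serum and 6 h (correlations of same-numbered deviations 0.281, 0.159 and 0.542) and serum and 24 h (0.27, 0.105 and 0.468) were taken as paired by number. The main fits did not use this pairing, and the numbers matched only in part. Serum replicate 2 correlated more with replicate 1 of 6 h (0.247) and of 24 h (0.341) than with replicate 2 of either. The other pairs of groups compared each had a same-numbered correlation under 0.1 and were not. By rule all S100 genes are given in each comparison with serum. Lists are given by counts, with the 2 largest rises and falls at 72 h, and the 5 genes most alike in pattern by Pearson r. Alternatives were other filters, scalings, offsets and fits, the replicate block, leaving out each library and, chosen after seeing the data, voom on recovered reads, with its own filter (10 reads in 3 libraries, 15240 genes).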

Additional observations from a re-analysis of the deposited data

How the results depend on the processing

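Each result was recomputed with 1 choice changed at a time, except that voom came with another filter (10 reads in 3 libraries). Shares over all features are given above for median centring. For the other settings, here and in the Results, shares over all genes, bins or windows are not given. Those counts, the windows of 20 kb included, show how calls moved and no excess over all features. With no filter, 8 S100 genes other than S100a1 and S100a13 entered, among them the 4 with few reads. The number called was then 1 of 8 at 6 h, which was a gene below the filter. At 72 h it was 5 of 8, with genes below the filter among them. At 24 h the number called was 1 with the stricter filter or with a minimum log2 change of 1. From 6 to 24 h it was 1 with no filter, with the stricter filter, in a fit of those groups alone, with the minimum change and with voom and its filter, 0 with quantile normalisation and 1 to 2 without single libraries. From 24 to 72 h it was 1 with no filter or in a fit of those groups alone, and 1 to 4 without single libraries. For groups not paired by number, the replicate block gave 4 from 24 to 72 h and 3 at 72 h (S100a11, limma, adjusted p = 0.0359), 23 bins at 24 h, and changed no other count by over 1.5 times. Bins called at 24 h were 0 with bound reads alone, in a fit of those groups alone and without any single library (0 to 0), and 7 of 127 windows of 20 kb. In LT2i they were 62 with bound reads alone, 67 of 127 windows and 42 to 177 without single libraries. Genes called lower in LT2i were 3 with median centring, where the differences became 0.25 (S100a14), 0.062 (S100a3), 0.11 (S100a5), 0.0010 (S100a6) and 0.31 (S100a10). The sign of small differences turned for S100a11 at 6 h (0.041 with quantile normalisation and -0.12 to 0.11 without single libraries), and from 6 to 24 h without replicate 3 of 24 h for S100a6 (-0.62 to 0.088 over libraries left out) and S100a10 (-0.36 to 0.012). For H3K9me2 at 24 h it turned for S100a13, S100a16 and S100a4 with bound reads alone (0.14, -0.17 and 0.13) or with 2 kb added on each side (0.047, -0.070 and 0.34). Leaving out single libraries gave -0.34 to 0.10 for S100a14, -0.22 to 0.037 for S100a4, -0.28 to 0.34 for S100a16 and -0.39 to 0.11 for S100a13. The causes were not tested. Bins and genes with few bound reads, such as the S100a10 and S100a11 starts, are limited by depth.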
